A study of Mus musculus with 15 samples.

Results

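Enteroendocrine cells are the scattered hormone-secreting cells of the gut epithelium, and 10 genes that mark them or encode their products were followed in mouse ileum. The genes were chosen by name: the granule proteins Chga and Chgb, the distal gut hormones Gcg, Pyy and Nts, the proximal gut hormones Sct, Cck and Gip, Tph1, which encodes the first enzyme of gut serotonin synthesis, and the transcription factor Neurod1. All 10 were listed in every mouse, out of 17752 genes listed in at least 1 mouse, and all 10 passed the filter on low counts that left 14386 genes for testing. The mice were female, C57BL/6 by their labels and C57BL/6JOlaHsd in the study's methods, 8 weeks old by their labels and on a purified diet, and each gave 1 library from a piece of ileum. Every 2 days for 10 days they received by gavage either water or 200 mg/kg of proanthocyanidins (PAC), which are plant polymers of flavan-3-ol units, with 5 mice in each of 3 groups. The low PAC group received the fraction of low molecular weight and the high PAC group the fraction labelled as high molecular weight, which the study's methods call a medium degree of polymerization. Both fractions came from grape pomace and are mixtures, and the comparison asks whether polymer size matters to the ileum.

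Enteroendocrine cells sense nutrients, microbial products and bile acids in the lumen and release peptides from dense-core granules into the lamina propria. Subtypes are known by their main product and are arranged along the gut. Cells making gastric inhibitory polypeptide (Gip) and cholecystokinin (Cck) are most frequent in duodenum and jejunum, whereas L cells, which process the product of Gcg into glucagon-like peptides and also make peptide YY (Pyy), and N cells, which make neurotensin (Nts), are most frequent in ileum. Enterochromaffin cells use Tph1 to make serotonin. A whole piece of gut wall also holds enterocytes, muscle and the enteric nervous system, whose neurons use part of the same secretory machinery. In such bulk samples a smaller number of cells of a type cannot be told apart from less RNA per cell.

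The bases upstream of 3 of these genes are shown because they differed from water in different ways: Gcg had the largest difference between PAC and water upward, Gip the largest downward, and Pyy, the partner of Gcg in L cells, hardly differed. Each line holds the 250 bases before the RefSeq start of transcription on mm10 (RefSeq assembly GRCm38.p6), 5′ to 3′ on the strand of the gene, with the letters GATAA or TTATC (the core bound by GATA factors, both strands) and TATAAA or TTTATA (the TATA box, both strands) in capitals. Gcg lies on the minus strand (chr2:62483654-62483903), Gip on the plus strand (chr11:96024295-96024544) and Pyy on the minus strand (chr11:102107777-102108026, the downstream of its 2 starts).
Gcg: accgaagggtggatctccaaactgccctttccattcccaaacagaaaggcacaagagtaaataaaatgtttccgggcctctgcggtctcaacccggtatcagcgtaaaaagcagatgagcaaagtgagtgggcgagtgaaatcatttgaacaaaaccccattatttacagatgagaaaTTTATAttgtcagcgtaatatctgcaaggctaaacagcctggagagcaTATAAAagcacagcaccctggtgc
Gip: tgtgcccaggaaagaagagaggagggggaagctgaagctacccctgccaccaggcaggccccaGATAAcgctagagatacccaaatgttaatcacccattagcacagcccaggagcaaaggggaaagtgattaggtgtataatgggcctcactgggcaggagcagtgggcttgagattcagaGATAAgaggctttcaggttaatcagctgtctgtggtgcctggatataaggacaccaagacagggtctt
Pyy: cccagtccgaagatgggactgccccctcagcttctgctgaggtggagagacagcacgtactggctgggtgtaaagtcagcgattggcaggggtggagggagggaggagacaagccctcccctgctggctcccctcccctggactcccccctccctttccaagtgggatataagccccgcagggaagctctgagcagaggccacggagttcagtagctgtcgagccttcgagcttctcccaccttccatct
Gcg held TATAAA starting 24 bases and TTTATA starting 72 bases before its start, and Gip held GATAA starting 68 and 187 bases before its start. In windows from 250 bases before to 50 after the start, at least 1 GATA match stood in 3 of the 10 genes (Gip, Cck and Nts), against 25.4% of 32851 mouse promoters, and at least 1 TATA box match in 3 of 10 (Gcg, Sct and Chga), against 13.6%. CANNTG, the letters of the E-box that factors such as Neurod1 bind, stood in 10 of 10, against 72.3%. These are matches of letters in a window, not sites of binding. A gene was counted once over all its starts, of which Pyy and Tph1 had 2 each, whereas the shares count single promoters. The window of the upstream Tph1 start held no CANNTG.

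Measured per length as FPKM (fragments scaled to transcript length and library total), the 10 genes spanned a wide range in the 15 mice, and the hormones of the distal gut stood well above Gip and Cck. Nts came first at 60.4 ± 9.97 FPKM (SD, n = 15), followed by Sct at 51.5 ± 10.9, Gcg at 49.3 ± 11.9, Chgb at 34.7 ± 4.17, Pyy at 28.6 ± 5.38 and Chga at 23.5 ± 4.19. Gip at 6.06 ± 2.22, Cck at 5.36 ± 1.69, Neurod1 at 2.68 ± 0.31 and Tph1 at 1.81 ± 0.36 formed the lower part. Secretin, classed with the proximal gut, was the second most abundant hormone transcript here. In exact sign-flip permutation tests of the difference in log2 FPKM within each of the 15 mice, 7 of the 9 steps in this order had a p under 0.05 after adjustment over the 9 steps. The remaining steps were Sct over Gcg, higher in 10 of 15 mice (adjusted exact p = 0.17), and Gip over Cck, higher in 11 of 15 (adjusted exact p = 0.17). The largest step was from Chga to Gip, at 2.01 ± 0.42 on the log2 scale (SD), in 15 of 15 mice. The same values set the order and the groups were pooled, so the p-values of the steps are no independent test of it.

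**Figure D1:**
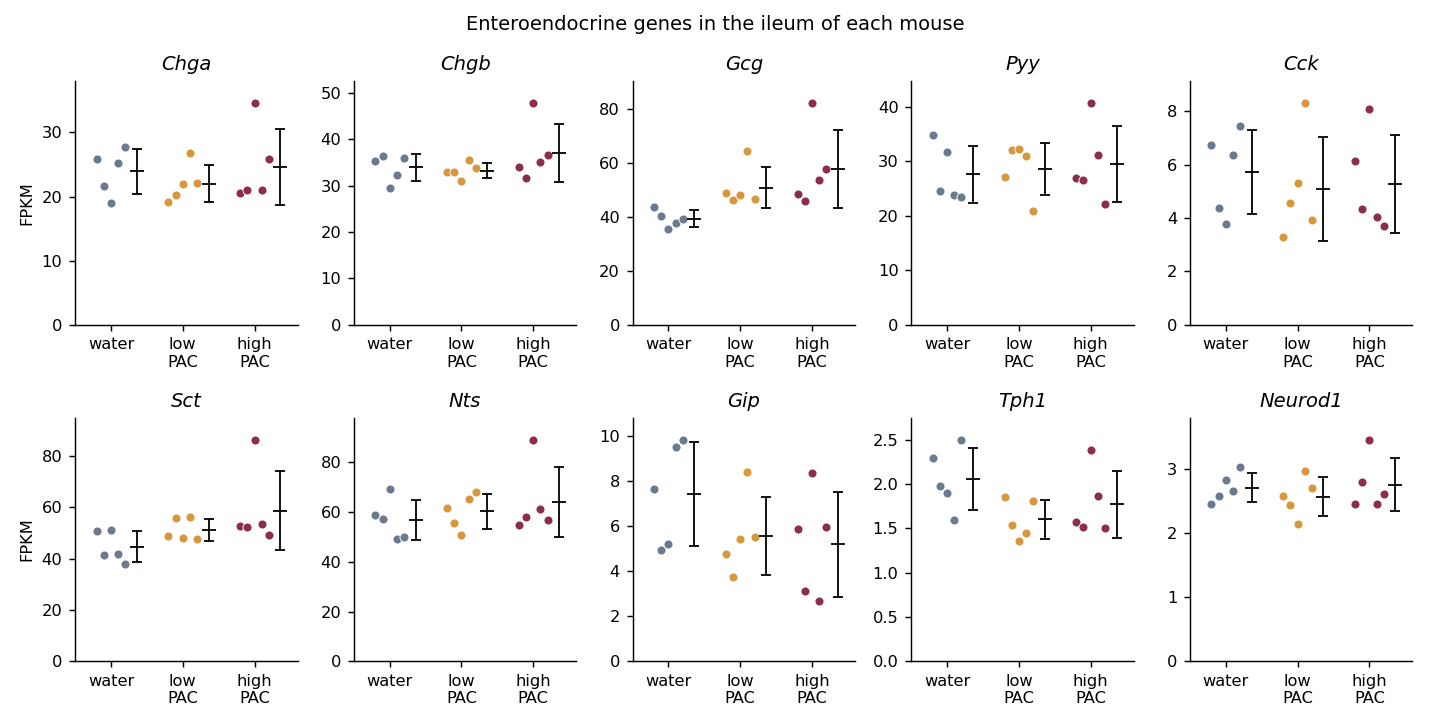
FPKM of each enteroendocrine gene (y axis, from 0) in the 15 mice by group (x axis); each point is 1 mouse, from mouse 1 on the left to mouse 5 on the right, and the bar beside the points is the mean with its SD. For Gcg the lowest PAC-treated mouse (46.1) sits above the highest water mouse (43.9), whereas in the other 9 panels the groups overlap, and high PAC mouse 3 is the highest point of its group in every panel.

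No gene of the 10 passed an adjusted p under 0.05 in edgeR's quasi-likelihood test in any of the 3 comparisons. For high PAC against water this was 0 of 10, where 0.0139% of 14386 genes passed; for low PAC against water and for high against low PAC it was 0 of 10, where 0% passed. At an unadjusted p under 0.05, 2 of 10 stood out in high PAC against water, Gcg upward and Tph1 downward, where 14.8% of all genes did, and the same genes in low PAC against water, where 3.61% did. High against low PAC gave 0 of 10, where 3.89% of all genes had such a p. DESeq2 called 1 of 10 in high PAC against water, Gcg (adjusted p = 0.0474), where it called 0.946% of the 14383 genes with a p. It gave Cck, Gip, Neurod1, Pyy and Tph1 no adjusted p in that comparison, so these could not be called. In the other comparisons DESeq2 called 0 of 10, where it called 0.0139% of genes in low PAC and 0% in high against low PAC. limma on log2 FPKM called 0 of 10 in all 3, where it called 0.0834%, 0% and 0%. In exact permutation tests on log2(FPKM + 0.1), 2 of 10 had a p under 0.05 in high PAC (Gcg and Sct, against 17.5% of genes), 2 of 10 in low PAC (Gcg and Tph1, against 4.74%) and 0 of 10 between the PAC groups (4.5%). The median log2 fold change of the 10 was -0.04 in high PAC against water and -0.11 in low PAC against water, with medians of 0.00 and -0.01 over all genes tested. Both PAC groups were set against the same 5 water mice, so these 2 comparisons are not independent.

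**Figure D2:**
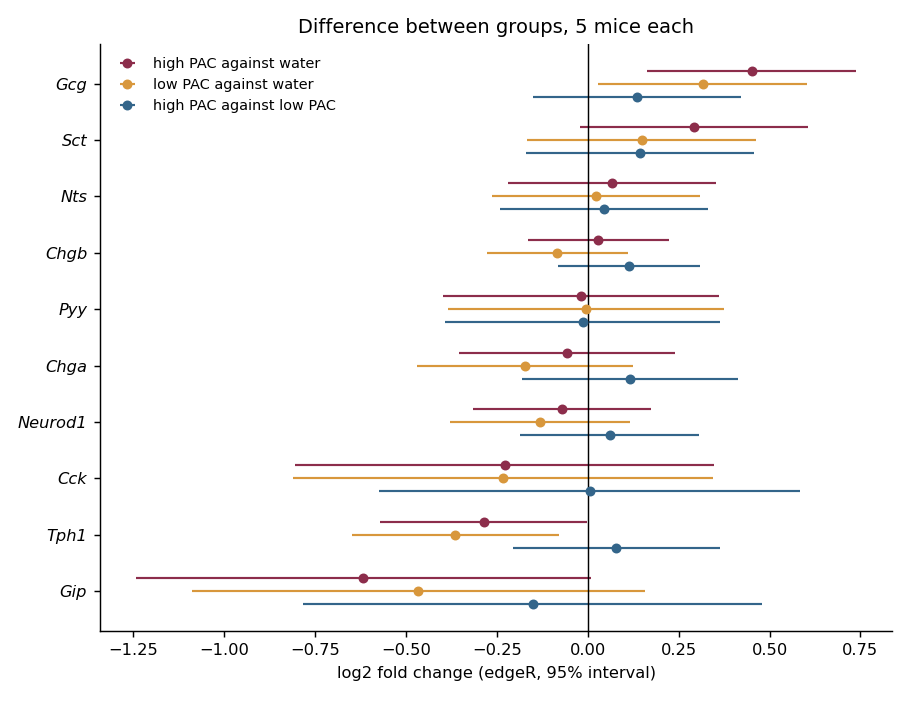
log2 fold change of each gene from edgeR with its 95% interval (x axis) in the 3 comparisons (colours), 5 mice per group; the zero line marks no difference. Gcg lies to the right of zero against water in both PAC groups (0.45 and 0.32), Gip and Tph1 to the left, and all 10 intervals for high against low PAC cross zero.

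Gcg, the precursor of the glucagon-like peptides that promote insulin release and mucosal growth, had the largest upward difference. In water mice it stood at 43.9, 40.4, 35.6, 37.8 and 39.1 FPKM, in low PAC mice at 48.9, 46.2, 48.0, 64.6 and 46.8, and in high PAC mice at 48.5, 46.1, 82.2, 53.6 and 57.7. All 5 mice of each PAC group therefore lay above every water mouse, a separation seen in 3.99% of genes tested for high PAC and 0.494% for low PAC. The group means were 39.4 ± 3.07, 50.9 ± 7.72 and 57.6 ± 14.5 FPKM (SD, n = 5 each), from 643 to 1458 counts per mouse. In exact 2-sided permutation tests on log2(FPKM + 0.1) both PAC groups differed from water with the smallest p that 5 against 5 mice allow (p = 0.0079). edgeR estimated 1.37-fold (log2 fold change 0.45, SE 0.14, 95% interval 0.16 to 0.74, p = 0.00435, adjusted p = 0.202) for high PAC and 1.24-fold (0.32, SE 0.14, p = 0.0336, adjusted p = 0.976) for low PAC.

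The separation of Gcg depended on the scale. FPKM divides by the library total, whereas CPM, counts scaled to the library total, take TMM factors into that total, which made it larger in the high PAC mice. On log2 CPM, 3 of 5 high PAC mice and 4 of 5 low PAC mice lay above every water mouse (all 5 did for 0.813% and 0.16% of genes), and the exact permutation p became 0.0238 and 0.0159. Without high PAC mouse 3, which was the highest of its group for every one of the 10 genes, the log2 fold change of high PAC was 0.33 (edgeR adjusted p = 0.311), and without low PAC mouse 4 that of low PAC was 0.22 (adjusted p = 0.971).

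A ratio between 2 genes of the same mouse needs no library scaling, and was examined after the values had been seen. The ratio of Gcg to Chga, a general marker of enteroendocrine cells, was 1.69, 1.86, 1.88, 1.5 and 1.41 in water mice, 2.55, 2.29, 2.19, 2.41 and 2.12 in low PAC mice and 2.36, 2.2, 2.38, 2.55 and 2.24 in high PAC mice. Neither PAC group overlapped water in it, and high PAC mouse 3, at 2.38, was the second highest of its group, below mouse 4 at 2.55. Over the other 9 genes, Gcg was higher in all 5 high PAC mice than in every water mouse in 6 of 9 ratios and in all 5 low PAC mice in 3 of 9 (Chga, Chgb and Tph1). Set over each of the 14309 other tested genes that were above 0 in every mouse, Gcg showed this in 26.5% of ratios for high PAC and 20% for low PAC.

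**Figure D3:**
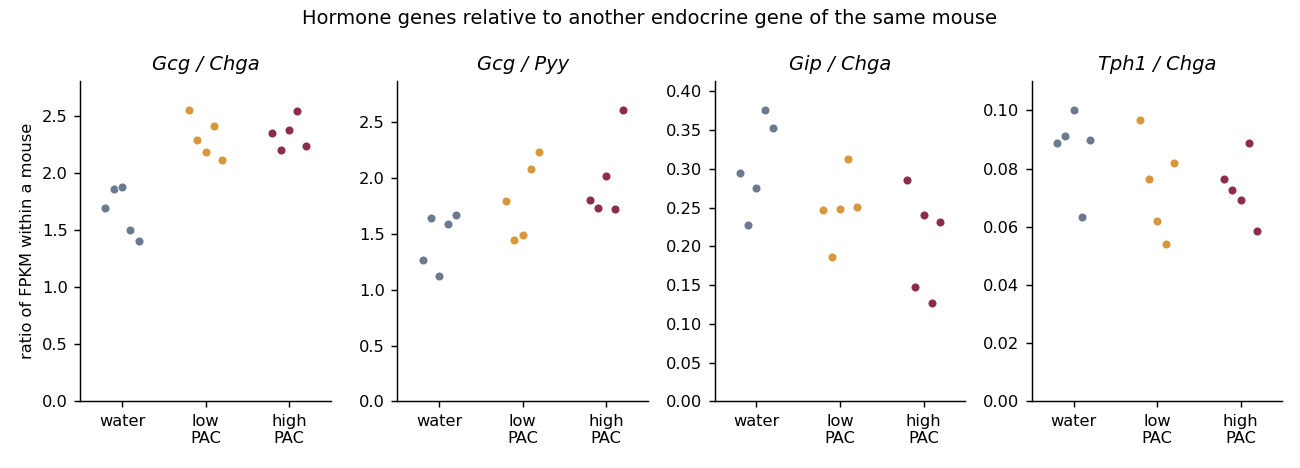
Ratio of the FPKM of 2 genes within each mouse (y axis, from 0) by group (x axis), 1 point per mouse. Gcg over Chga runs from 1.41 to 1.88 in water mice and from 2.12 to 2.55 in PAC-treated mice, Gcg over Pyy separates high PAC from water but not low PAC, and the ratios of Gip and Tph1 to Chga overlap between groups.

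Pyy encodes the other main L cell hormone, which slows transit and curbs appetite. Its levels were 34.8, 24.6, 31.7, 23.8 and 23.4 FPKM in water mice, 27.2, 32.0, 32.2, 31.0 and 20.9 in low PAC mice and 27.0, 26.6, 40.7, 31.1 and 22.1 in high PAC mice. The groups overlapped, with high PAC mouse 3 above every other mouse and low PAC mouse 5 below. The log2 fold change was -0.02 for high PAC (95% interval -0.40 to 0.36, edgeR adjusted p = 0.97) and 0.00 for low PAC (-0.38 to 0.38), and its sign turned with the normalization. Gcg over Pyy ran from 1.12 to 1.67 in water mice, from 1.44 to 2.24 in low PAC mice and from 1.72 to 2.61 in high PAC mice. All 5 high PAC mice lay above the water mice, as they did for 26.5% of the ratios of Gcg to another gene.

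Nts encodes neurotensin, released by N cells in response to fat. Its mean was 56.9 ± 8.10 FPKM in water, 60.3 ± 7.09 in low PAC and 64.0 ± 14.2 in high PAC (SD, n = 5 each), and the groups overlapped. High PAC mouse 3 stood at 89.0 while the other 4 lay between 54.7 and 61.3. The edgeR log2 fold changes were 0.07 (95% interval -0.22 to 0.35) and 0.02 (-0.26 to 0.31) for high and low PAC against water.

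Sct, the precursor of secretin, which drives bicarbonate secretion, stood at 50.8, 41.4, 51.1, 41.7 and 38.1 FPKM in water mice, 48.8, 55.8, 48.1, 56.1 and 47.5 in low PAC mice and 52.7, 52.2, 86.2, 53.4 and 49.1 in high PAC mice. In high PAC, 4 of 5 mice lay above every water mouse, and the exact permutation test on log2(FPKM + 0.1) gave p = 0.0397. The exact permutation p was 0.167 on log2 CPM and 0.0794 without high PAC mouse 3. The log2 fold change was 0.29 (SE 0.15, edgeR adjusted p = 0.371), and 0.16 without high PAC mouse 3. For low PAC the log2 fold change was 0.15 (edgeR adjusted p = 0.976), with 0.08 without water mouse 5 and 0.22 without water mouse 1.

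Gip, an incretin made by K cells, had the largest downward difference of the 10 in log2 fold change against water. Water mice stood at 7.62, 4.93, 5.22, 9.49 and 9.81 FPKM, low PAC mice at 4.74, 3.75, 5.44, 8.39 and 5.53, and high PAC mice at 5.87, 3.10, 8.33, 2.68 and 5.96. The groups overlapped, and 2 of 5 mice in each PAC group lay below every water mouse. These levels rest on 27 to 97 counts per mouse. The edgeR log2 fold change was -0.62 (SE 0.29, 95% interval -1.24 to 0.01, p = 0.0525, adjusted p = 0.344) for high PAC and -0.47 (SE 0.29, p = 0.132, adjusted p = 0.976) for low PAC, and the exact permutation tests gave p = 0.19 and 0.198.

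Cck, which triggers gallbladder contraction and satiety, also varied from mouse to mouse, at 3.78 to 7.44 FPKM in water mice, 3.29 to 8.31 in low PAC and 3.70 to 8.11 in high PAC, from 36 to 87 counts per mouse. Its edgeR log2 fold change was -0.23 in both comparisons with water, with 95% intervals from -0.80 to 0.35 and from -0.81 to 0.34. Single mice moved it, in high PAC to -0.39 without high PAC mouse 3 and -0.13 without high PAC mouse 5. In low PAC it became -0.47 without low PAC mouse 4 and -0.11 without low PAC mouse 1.

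Tph1 was lower with PAC at the unadjusted level. It stood at 2.30, 1.98, 1.90, 1.60 and 2.5 FPKM in water mice, 1.85, 1.54, 1.36, 1.45 and 1.81 in low PAC mice and 1.57, 1.52, 2.39, 1.87 and 1.51 in high PAC mice. In each PAC group 3 of 5 mice lay below every water mouse. edgeR gave -0.36 on the log2 scale (SE 0.13, adjusted p = 0.976) for low PAC and -0.29 (SE 0.13, adjusted p = 0.333) for high PAC. The exact permutation p was 0.0397 for low PAC and 0.183 for high PAC, and without high PAC mouse 3 the latter became 0.0317.

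Of 7 other genes tied to serotonin, for its synthesis, loading and clearance or, for the irritant channel Trpa1, for its release by enterochromaffin cells, all 7 had log2 fold changes below zero in low PAC against water and 6 of 7 in high PAC, with medians of -0.18 and -0.20. This direction depended on the scaling, since upper-quartile scaling and limma each put 4 of 7 below zero in high PAC and 5 of 7 in low PAC. The median of high PAC was -0.08 without water mouse 1 and -0.10 without high PAC mouse 2 or 3, and that of low PAC was -0.08 without low PAC mouse 4. None passed an adjusted p under 0.05 in edgeR. At an unadjusted p under 0.05 in edgeR (2 of 7 in high PAC and 1 of 7 in low PAC, where 14.8% and 3.61% of all genes did, and 0 with limma), Maoa, which degrades serotonin, was lower in both (-0.27 in high PAC and -0.23 in low PAC), and Slc6a4, the serotonin transporter of enterocytes, was lower in high PAC (-0.35). Ddc, the second enzyme of synthesis, gave -0.05 in high PAC, where it turned to 0.04 without high PAC mouse 1 and to 0.05 with limma, and -0.18 in low PAC, with -0.28 without low PAC mouse 5 and -0.08 without low PAC mouse 4. Maoa and Slc6a4 are also made by enterocytes, and the 6 enterocyte marker genes were likewise lower in high PAC, 6 of 6 below zero (median -0.44, and -0.29 without high PAC mouse 3), with a summed level of 12410 to 16236 FPKM in water mice, 9997 to 14299 in low PAC and 8531 to 13628 in high PAC. At an unadjusted p under 0.05 in edgeR 5 of the 6 were lower in high PAC (14.8% of all genes; 2 to 6 with single mice left out), while at an adjusted p under 0.05 edgeR called 0 (0.0139% of all genes) and DESeq2 1 (0.946%). The part of the enterocyte genes in these results was not tested.

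The markers of the whole lineage had no common direction. Chga, whose product is the granule protein chromogranin A, had means of 23.9 ± 3.55, 22.0 ± 2.93 and 24.6 ± 5.98 FPKM in water, low and high PAC (SD, n = 5 each), and Chgb of 33.9 ± 2.92, 33.2 ± 1.60 and 37.0 ± 6.30. High PAC mouse 3, at 34.6 and 47.8, was above every other mouse in both. The edgeR log2 fold changes in high PAC were -0.06 (95% interval -0.35 to 0.24) for Chga and 0.03 (-0.17 to 0.22) for Chgb, and in low PAC -0.17 (-0.47 to 0.12) and -0.08 (-0.28 to 0.11). Neurod1, needed late in the differentiation of these cells, gave -0.07 (-0.32 to 0.18) and -0.13 (-0.38 to 0.12). Neurog3, the factor that starts the lineage, was low in all groups, at 0.85 ± 0.18, 0.91 ± 0.29 and 0.84 ± 0.16 FPKM.

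The fractions of low and high molecular weight were given at one dose and one time, so they can be compared directly. For the 10 genes, 10 differences between high and low PAC were tested within the fit over all genes, and the smallest adjusted p was 0.896 (edgeR). The log2 fold changes lay between -0.15 for Gip and 0.14 for Sct. The 95% interval for Gcg was -0.15 to 0.42, for Sct -0.17 to 0.46, for Tph1 -0.21 to 0.36 and for Gip -0.78 to 0.48. These intervals leave room for differences in either direction, and they do not show that the fractions acted alike.

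Proximal hormones were then set against distal ones. Sct, Cck and Gip made up 31.8 ± 1.93% of the summed FPKM of the 6 hormones in water mice, 30.7 ± 1.30% in low PAC and 31.3 ± 1.69% in high PAC (SD, n = 5 each). Sct supplied most of that share. Gip and Cck alone made up 7.35 ± 2.47%, 5.21 ± 1.25% and 4.70 ± 1.13%, with ranges of 4.58 to 10.3%, 4.13 to 7.14% and 3.26 to 6.16% that overlapped. Gcg over Gip, chosen after the values had been seen as the gene with the largest upward difference over that with the largest downward one, is given without a test. Its range was 3.98 to 8.19 in water mice, 7.70 to 12.3 in low PAC mice and 8.26 to 20.004 in high PAC mice. The geometric means were 5.52, 9.39 and 11.9. Every high PAC mouse and 4 of 5 low PAC mice lay above every water mouse, where Gcg over another gene put all 5 mice above in 26.5% and 20% of ratios.

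The place along the gut from which a piece was taken may differ between mice, and genes of position were read beside the hormones. Gata4, a factor of proximal small intestine, was high in water mice 4 and 5 (12.5 and 12.7 FPKM) and in low PAC mouse 4 (6.23), and lay between 0.39 and 4.58 in the other 12. Those 3 mice also had the 3 highest Gip levels of all 15 (9.49, 9.81 and 8.39). High PAC mouse 3 followed in Gip (8.33) with Gata4 at 0.75, so the match did not extend to it; the overlap was noticed after the values had been seen. Fabp6, a bile acid binding protein of ileal enterocytes, was lowest in the same 2 water mice (4307 and 4196 FPKM) and lay between 5937 and 10620 in the other 13. Across all 15 mice, with group means subtracted, Gip and a score of proximal less distal genes gave r = 0.43 (permutation p = 0.109, adjusted p = 0.425 over 20 relations) and rho = 0.46 (permutation p = 0.0967, adjusted p = 0.387), and r was 0.27 once the 2 mice with the most extreme scores were set aside. The score itself had means of -5.38 in water, -6.05 in low PAC and -6.03 in high PAC. Against water, 4 of 6 proximal genes tested had an edgeR log2 fold change below zero in high PAC and 5 of 6 in low PAC. Of 7 distal genes, 5 were below zero in high PAC and 1 in low PAC. Gata4 itself had an edgeR log2 fold change of -2.48 in high PAC (adjusted p = 0.211) and -1.42 in low PAC (adjusted p = 0.976). The part of position in the lower Gip values was not tested.

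Within groups, the genes fell into sets that varied together from mouse to mouse. With group means subtracted, 7 of 45 pairs were related at an adjusted permutation p under 0.05 on log2(FPKM + 0.1). Gcg followed Chgb (r = 0.88, permutation p = 0.00021, adjusted 0.00585; rho = 0.86, permutation p = 0.00027, adjusted 0.00675) and Chga (r = 0.85, adjusted permutation p = 0.0209; rho = 0.80, adjusted permutation p = 0.0333). Pyy followed Sct (r = 0.83, permutation p = 0.00026, adjusted 0.00585; rho = 0.82, adjusted permutation p = 0.00675), while its relation to Gcg missed the threshold (r = 0.50, adjusted permutation p = 0.217). Gip followed Chga (r = 0.82, adjusted permutation p = 0.0178; rho = 0.78, adjusted permutation p = 0.0383) and Cck (r = 0.74, adjusted permutation p = 0.0324; rho = 0.69, adjusted permutation p = 0.0914). The remaining pairs were Chga with Chgb (r = 0.82, adjusted permutation p = 0.0324; rho = 0.77, adjusted permutation p = 0.0383) and with Cck (r = 0.76, adjusted permutation p = 0.0299; rho = 0.63, adjusted permutation p = 0.119). With the 2 mice set aside that were most extreme in the second gene of a pair, r stayed between 0.57 and 0.78 in these 7 pairs. Low PAC mouse 4 and high PAC mouse 3, high in several of these genes at once, weighed most: 2 pairs passed without the former and 3 without the latter.

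**Figure D4:**
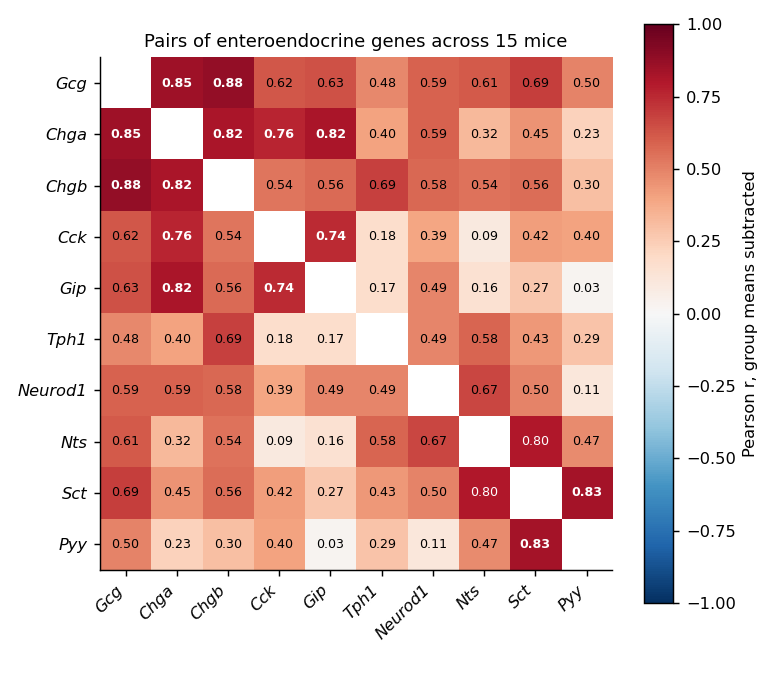
Pearson r of log2(FPKM + 0.1), group means subtracted, for every pair of the 10 genes across 15 mice (colour and number in each cell); bold numbers mark the 7 pairs with an adjusted permutation p under 0.05. Bold cells join Gcg, Chga and Chgb with each other, Cck and Gip with Chga and with each other, and Sct with Pyy.

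All values of a mouse come from 1 library and 1 piece of tissue, and the genes most like each of the 10 are given as a description. Among 12420 genes with a mean of at least 1 FPKM, the closest to Gcg over the 15 mice, group means subtracted, were Krt18 (r = 0.93), Cdx1 (0.92) and Mzt2 (0.92), the first 2 being a keratin and a transcription factor of the whole epithelium. The closest to Sct was Lgals4 (0.96), which enterocytes make in abundance, to Gip Slco2b1 (0.88) and to Pyy Myl12a (0.92). The closest to Neurod1 were Mrrf (0.96) and Cyb5a (0.93), and to Tph1 Rbm7 (0.89). None of the 10 had another enteroendocrine gene of the lists among its closest 3.

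Enteric neurons were followed because they share granule genes with enteroendocrine cells. Of 17 neuronal marker genes, all were listed, and their summed level was 23.1 to 66.1 FPKM in water mice, 43.7 to 72.2 in low PAC and 67.4 to 77.2 in high PAC. Water mice 1 and 3 stood lowest in these genes and in smooth muscle genes. Of the 16 tested, 16 had a log2 fold change above zero in both comparisons with water (medians 0.55 and 0.35), with 0 at an adjusted p under 0.05 in edgeR. At an unadjusted p under 0.05 there were 3 in high PAC (0 to 9 with single mice left out), where 14.8% of all genes had such a p, and 0 in low PAC, where 3.61% did. Without water mice 1 and 3 together the medians were 0.12 and -0.08, and without 1 of them that of low PAC was 0.16 and 0.14 (0.53 without water mouse 2). The score of these genes ran against Sct (r = -0.65), Pyy (r = -0.64) and Nts (r = -0.59) within groups, with adjusted permutation p values of 0.0534, 0.0544 and 0.0544 over 20 relations, and adjusted permutation p values of 0.267 for each rho. Gcg gave r = -0.31 with the neuronal score (permutation p = 0.0684, adjusted 0.342, and rho = 0.01). Without water mice 1 and 3 its log2 fold change against water was 0.49 in high PAC and 0.36 in low PAC. Neither difference passed an adjusted p under 0.05 in edgeR. B cell genes, found in the lymphoid follicles that a piece of gut may hold, also differed from mouse to mouse. The 6 of the list summed to 6.98 to 140.9 FPKM in water mice (median 72.8), 7.23 to 70.7 in low PAC (median 8.15) and 5.50 to 214 in high PAC (median 7.60), and 0 of 6 had an adjusted or unadjusted p under 0.05 in edgeR in either comparison with water. The ranges of the groups overlapped, and the part of these genes in the hormone differences was not tested. Pancreatic genes were at or near 0, with 3 of 7 listed and a summed level of at most 0.15 FPKM in any mouse.

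The other gut hormones leaned upward. Of 9 listed by name, 7 were tested, and 7 of 7 were above zero in high PAC and 6 of 7 in low PAC (medians 0.35 and 0.27). At an adjusted p under 0.05 edgeR called 0. An unadjusted p under 0.05 was seen for 2 in high PAC, where 14.8% of all genes had one, and for 0 in low PAC, and with single mice left out the former became 0 (without water mouse 3) to 3. Without high PAC mouse 3 the median of high PAC was 0.22. Sst, made by D cells that restrain the other hormones and also by neurons, was 37.1 ± 2.71, 46.3 ± 8.62 and 52.0 ± 13.7 FPKM (SD, n = 5 each), with an edgeR log2 fold change of 0.39 in high PAC (adjusted p = 0.289). Cartpt, a peptide largely of neurons, gave 1.32 in high PAC (edgeR adjusted p = 0.307) from 0 to 21 counts per mouse, and 0.61 without water mice 1 and 3. Ghrl, the ghrelin gene, gave 0.35 in high PAC (edgeR adjusted p = 0.395), and 0.22 without high PAC mouse 3. Without water mice 1 and 3, 4 of 7 and 5 of 7 were above zero, with medians of 0.39 and 0.18.

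Genes of the secretory granule and of peptide processing leaned upward too. All 14 tested of 15 had log2 fold changes above zero in both comparisons with water, with medians of 0.49 in high PAC and 0.31 in low PAC, and 0 passed an adjusted p under 0.05 in edgeR. At an unadjusted p under 0.05 there were 6 in high PAC, where 14.8% of all genes had such a p, and 2 in low PAC, where 3.61% did (4 to 9 and 0 to 6 with single mice left out). limma gave 11 and 6 (18.9% and 4.46% of all genes) and called 1 at an adjusted p under 0.05, Scg5 in high PAC (0.0834% of all genes). Without water mouse 3 the medians were 0.33 and 0.21. Without water mice 1 and 3 the count above zero was 11 of 15 and 9 of 15, and the medians were 0.15 and 0.03. Scg5, the chaperone of the prohormone convertase Pcsk2, had the smallest p: 1.34, 1.56, 1.45, 1.81 and 2.30 FPKM in water mice, 2.64, 2.44, 2.31, 1.80 and 2.29 in low PAC and 3.55, 3.23, 3.80, 2.6 and 2.76 in high PAC. Every high PAC mouse stood above every water mouse, and the edgeR log2 fold change was 0.82 (SE 0.16, adjusted p = 0.133) in high PAC and 0.40 (adjusted p = 0.976) in low PAC. Scgn, secretagogin, a calcium sensor that marks enteroendocrine cells, was 4.20, 3.34, 3.19, 4.12 and 3.74 FPKM in water mice, 4.45, 4.62, 4.74, 4.33 and 4.96 in low PAC and 4.96, 5.00, 7.61, 5.22 and 5.26 in high PAC. As for Gcg, all 10 PAC-treated mice lay above all 5 water mice on FPKM (3.99% of genes tested for high PAC and 0.494% for low PAC), while on CPM all 5 high PAC mice but only 3 of 5 low PAC mice did (0.813% and 0.16% of genes had all 5). Its edgeR log2 fold change was 0.49 in high PAC (SE 0.13, adjusted p = 0.185) and 0.26 in low PAC (adjusted p = 0.976). Pcsk1, the convertase that releases the glucagon-like peptides from the product of Gcg, gave 0.26 in high PAC (edgeR adjusted p = 0.344) and 0.03 in low PAC. The low PAC value ran from -0.0078 to 0.14 with single mice left out, and was -0.043 without water mice 1 and 3.

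**Figure D5:**
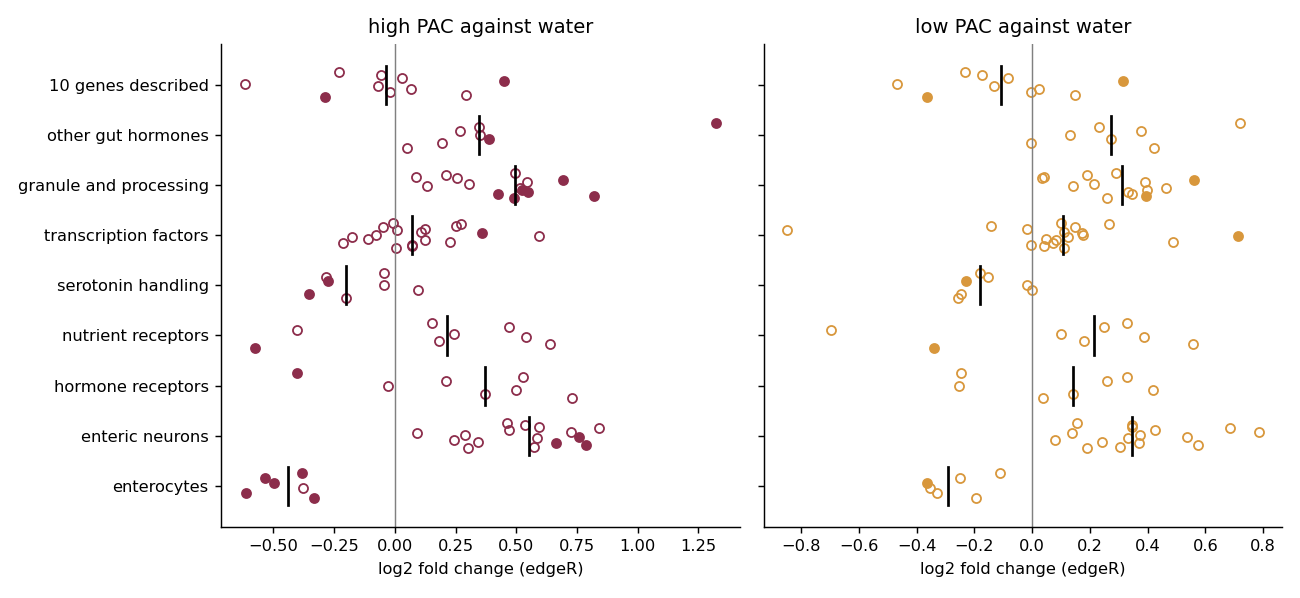
log2 fold change from edgeR (x axis) of every tested gene of each list (y axis) against water, for high PAC on the left and low PAC on the right; filled points have an unadjusted p under 0.05 and vertical bars are list medians. All 14 granule and processing genes and all 16 neuronal genes lie to the right of zero in both panels, all 6 enterocyte genes to the left, and no point passes an adjusted p under 0.05 in edgeR.

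Transcription factors of the lineage were divided, with 12 of 18 above zero in high PAC and 14 of 18 in low PAC (medians 0.07 and 0.11, 0 at an adjusted p under 0.05 in edgeR). Isl1, which several hormone cells use, gave 0.36 in high PAC (edgeR adjusted p = 0.32), and Mnx1, known from enterochromaffin cells, 0.71 in low PAC (edgeR adjusted p = 0.976). Of the receptors through which these cells read nutrients, 6 of 8 tested were above zero in both comparisons and 0 passed an adjusted p under 0.05. The exceptions in direction were Lpar5 and Ffar1. Lpar5, a receptor for lipid and peptide digests also found on enterocytes, stood at 13.5 ± 0.52, 11.04 ± 0.79 and 9.61 ± 2.67 FPKM with a log2 fold change of -0.58 in high PAC (edgeR adjusted p = 0.185, and -0.40 without high PAC mouse 3) and -0.34 in low PAC. Ffar1, a receptor of long-chain fatty acids, rested on 2 to 30 counts per mouse and gave -0.40 (edgeR adjusted p = 0.741) and -0.70 (edgeR adjusted p = 0.976). Single mice moved it, to -1.07 without high PAC mouse 1 and -0.18 without high PAC mouse 5 in high PAC, and to -0.43 without low PAC mouse 1 in low PAC.

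On the receiving side, 7 of 13 hormone receptors were expressed enough to test, 5 of 7 were above zero in both comparisons and 0 passed an adjusted p under 0.05. Glp2r, the receptor of one of the peptides cut from the product of Gcg, was 3.63 ± 0.33, 3.19 ± 0.73 and 2.92 ± 0.51 FPKM, with a log2 fold change of -0.40 in high PAC (edgeR adjusted p = 0.265). Dpp4, the enterocyte peptidase that inactivates the glucagon-like peptides and Gip, was 262 ± 26.0, 223 ± 21.2 and 199.8 ± 54.4 FPKM, with a log2 fold change of -0.48 in high PAC (edgeR adjusted p = 0.261) and -0.29 in low PAC (edgeR adjusted p = 0.976). High PAC mouse 3 stood at 106.8 FPKM and the other 4 of its group between 195.5 and 235, and without it the log2 fold change of high PAC was -0.29. The enterocyte genes were lower in the same comparisons, and their part in this was not tested.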

How the data were processed

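The authors deposited 1 table per mouse with expected counts per gene, which are estimates and need not be whole (88.6 to 89.5% of the values of a mouse were whole numbers), and FPKM. The deposited FPKM divide by transcript length and library total; the counts sum to 15963086 to 17903886 per mouse. Reads came from a BGISEQ-500. The study's methods name SOAPnuke, Bowtie2 and mm10, the submitters' processing notes HISAT, DESeq2 and mm10, and the counting tool is not given in the sources used here. A gene not listed for a mouse was set to 0. Genes are counted without stated strand. The 10 genes and all gene lists were chosen with earlier results of these data known.

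Expected counts were rounded and fitted over all 3 groups with edgeR 4.0.16 (TMM, filterByExpr, quasi-likelihood test, Benjamini-Hochberg over 14386 genes). Further alternatives were DESeq2 1.42.0, limma 3.58.1 on log2(FPKM + 0.1), other scalings, no filter, a replicate block and each mouse left out. Single genes were compared by 2-sided exact permutation on log2(FPKM + 0.1), relations by 100000 permutations within groups (10000 for alternatives). All 10 genes are named; other listed genes are named if they had an adjusted p under 0.05 or were among the 3 smallest p of their list, or define the cells. The pipeline was tested on simulated counts. Same-numbered mice were not paired. The p-values measure the spread between mice, each sequenced once, and counting intervals were not used. Promoters are from RefSeq.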

Additional observations from a re-analysis of the deposited data

Results flagged for a closer look

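In 30 groups of 5 mice (10 genes in 3 groups), 3 groups held a mouse that stood farther from the rest than Dixon's 95% critical value of 0.71 for 5 samples allows; chance gives about 1 in 20 groups. Gcg in low PAC mouse 4 was 64.58 FPKM, with the other 4 between 46.2 and 48.9. Sct in high PAC mouse 3 was 86.19 FPKM, with the other 4 between 49.1 and 53.4. Nts in the same mouse was 88.98 FPKM, with the other 4 between 54.7 and 61.3. That mouse also had the lowest summed enterocyte level of its group (8531 FPKM) and the highest Fabp6 level of all 15 (10620 FPKM), and the part of these in its hormone levels was not tested.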

How the results depend on the processing

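Of the 10 genes, the count called at an adjusted p under 0.05 held at 0 in low PAC against water under every alternative run. The same was true of high against low PAC. In high PAC against water it held at 0 under all but DESeq2, which called 1 (Gcg). There edgeR's adjusted p for Gcg ranged from 0.17 to 0.385 with single mice left out. Among the other alternatives the adjusted p of Gcg reached 0.62. At an unadjusted p under 0.05 the count of 2 in high PAC against water became 1 with only the 2 groups compared, and 1 to 3 with single mice left out; in low PAC it became 1 without water mice 1 and 3, an alternative chosen after seeing the data, and 1 to 2 with single mice left out. Same-numbered mice deviated together with r from -0.31 to 0.45. In high PAC against water, r ran from -0.21 to 0.45 for the same number, against means of -0.11 to 0.05 for other numbers. These values do not settle whether the replicate number pairs the mice. The replicate block called 0 of the 10 genes in all comparisons and gave 1 of them at an unadjusted p under 0.05 in low PAC. The exact permutation count of 2 became 1 on log2 CPM in high PAC, and 1 to 2 in both comparisons with single mice left out. Pairs ranged from 2 to 8 with single mice left out, and the 0 relations to tissue scores became 1 with log2(FPKM + 1) and 0 to 3 with single mice left out. For all of these the cause was not tested.

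The log2 fold changes whose sign turned lay between -0.17 and 0.14, and none of them was called. Against water in high PAC, Chga became 0.0086 with upper-quartile scaling and 0.023 with limma, Neurod1 0.016 with limma, and Pyy 0.052 with upper-quartile scaling, 0.0070 with RLE, 0.0070 with DESeq2, 0.018 with no filter, 0.082 with limma and 0.23 without water mice 1 and 3. In low PAC, Pyy became 0.032 with upper-quartile scaling, 0.017 with RLE, 0.017 with DESeq2, 0.021 with no filter, 0.054 with limma, 0.25 without water mice 1 and 3 and 0.017 with only the 2 groups compared. In high against low PAC, Pyy became 0.020 with upper-quartile scaling and 0.028 with limma. With single mice left out, high PAC against water ranged from -0.17 to 0.0080 for Chga, -0.040 to 0.073 for Chgb, -0.11 to 0.097 for Pyy and -0.035 to 0.16 for Nts, and low PAC against water from -0.074 to 0.11 for Pyy and -0.037 to 0.11 for Nts. High against low PAC ranged from -0.017 to 0.19 for Chga, -0.0058 to 0.23 for Gcg, -0.13 to 0.068 for Pyy, -0.18 to 0.24 for Cck, -0.013 to 0.20 for Sct, -0.083 to 0.10 for Nts, -0.36 to 0.036 for Gip (-0.37 to 0.029 on log2 FPKM), -0.0053 to 0.13 for Tph1 and -0.014 to 0.11 for Neurod1. Depth limits Gip and Cck most, at 27 to 97 and 36 to 87 counts per mouse.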
